A study of Mus musculus with 20 samples.

Results

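A set of 185 regions was taken from the mouse genome as candidate poised enhancers of embryonic stem (ES) cells: sites that carried the enhancer mark H3K4me1 and the coactivator p300 but little of the acetyl mark H3K27ac. They were found by counting sequenced reads in 1 kb bins of chromosomes 1 to 19 and scaling each count to RPM, the reads per M (mega) distinct reads of the library. A bin was distal where H3K4me3, the mark of promoters, stayed under 1.5 RPM in ES cells and liver in the bin and in both neighbours. A distal bin was kept where mean ES H3K4me1 was at least 2 RPM and at least 2 times the level of total histone H3 plus 0.1. It also needed p300 of at least 3 RPM in each of 2 ES libraries and H3K27ac under 0.7 RPM in each of 2 ES libraries. Of 2462465 bins in all, 2278144 were distal, and 187 of these passed. Joining bins within 1 kb gave the 185 regions, of which 183 were a single bin and 2 were a pair of bins.

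The study mapped histone marks and factors by chromatin immunoprecipitation followed by sequencing in 20 libraries of mouse cells and tissue. ES cells gave 10 libraries, mostly of the V6.5 line, which has a mixed C57BL/6 and 129 background. The 3 H3K4me1 libraries came from V6.5 cells, from V6.5 cells with the doxycycline-inducible 4F2A transgene, and from the inbred C57BL/6 line J21. Neural progenitor cells (NPCs) gave 2 libraries and were selected in culture from embryoid bodies grown for 4 days from V6.5 cells, then kept with FGF and EGF. Perfused whole liver, a tissue of several cell types, gave 5 libraries, and mouse embryonic fibroblasts (MEFs) gave 2. One library came from the induced pluripotent stem (iPS) line O6, which was made from MEFs. ES and iPS cells were grown on irradiated MEFs and then passaged 1 or 2 times off the feeders, so how many MEFs remained is not known. The labels do not say that libraries of one group came from separate cultures. For the second p300 library the description gives the target as p301, whereas the title and the antibody entry give p300, which was followed here.

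Histone acetyltransferase p300 is brought to enhancers by transcription factors and can acetylate H3K27 there. H3K4me1 marks enhancers whether they are active or not, and H3K27ac marks those that are active. Enhancers with H3K4me1 and p300 but without H3K27ac are called poised, and in ES cells such sites have been described near genes that are switched on later in development. Because chromatin of many cells was pooled in each library, fewer cells with a mark and less of the mark per cell cannot be told apart.

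Libraries held 2.45 to 18.2 M reads, of which 0.705 to 14.5 M were distinct in position and strand. Repeated reads made up 70.0% of the ES H3K4me3 library and 72.5% of the NPC Rfx1 library, and at most 20.7% of the others. No H3 or input library of NPCs or iPS cells was used here, so both were set against ES H3. All intervals are exact 95% intervals that cover counting error only. The cells were not checked against marker genes, because no annotation of the files' genome build was at hand.

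Regions with p300 but hardly any H3K27ac were a small share of the distal p300 sites of ES cells. Of 6579 distal bins with H3K4me1 and p300, 187 (2.84%, 2.45 to 3.27) fell under the H3K27ac limit, 4352 (66.1%) had at least 2 RPM of H3K27ac in both libraries, and 2040 lay between these limits. The higher of both H3K27ac libraries was under 0.35 RPM in 36 of these bins and between 0.35 and 0.7 RPM in 151. It lay between 0.7 and 1 RPM in 218 and between 1 and 2 RPM in 1004. The levels thus run on without a gap across the limit, and the regions are the low end of a range. Of the 6999 distal bins with H3K4me1 that were under the H3K27ac limit, the 187 with p300 made up 2.67% (2.31 to 3.08).

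One further set serves below as a comparison: 3628 acetylated p300 regions, chosen in the same way but with H3K27ac of at least 2 RPM in both ES libraries. Another set has 2890 H3K4me1-only regions, which met the H3K4me1 and H3K27ac conditions but had p300 under 1 RPM in both libraries. ES levels set all 3 sets, so they are given as a description, without a test.

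The values that chose the regions were as follows. p300 had a median of 4.25 RPM in library 1 (3.12 to 11.2) and 4.65 RPM in library 2 (3.10 to 14.2). ES H3K4me1 had medians of 2.57, 2.62 and 2.55 RPM in libraries 1 to 3, and 103 of the 185 regions reached 2 RPM in all 3 of them. ES H3K27ac had medians of 0.45 and 0.35 RPM, and no region had more than 6 reads in library 1 or more than 5 in library 2.

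H3K27ac was low at the regions but not zero. The mean over the regions was 0.449 RPM in library 1 and 0.347 RPM in library 2, which was 1.80 and 1.60 times the mean of all distal bins. Input DNA, taken as whole cell extract (WCE), had a mean of 0.646 RPM there, which was 1.71 times (1.59 to 1.83) its own distal mean. ES H3 was 1.22 times (1.14 to 1.31) its own. The H3K27ac ratios were capped by the choice, and the part of input in them was not tested. Both H3K27ac libraries lay at or under their own distal means at 17 of the 185 regions. In H3K4me1-only regions, chosen with the same limit, the mean levels were 0.433 and 0.349 RPM. Histone H3 had a median of 0.42 RPM and WCE 0.56 RPM. All 185 regions had p300 at least 2 times WCE plus 0.1 RPM in both libraries, and the lower of both ratios had a median of 5.98 (2.23 to 48.2).

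**Figure D1:**
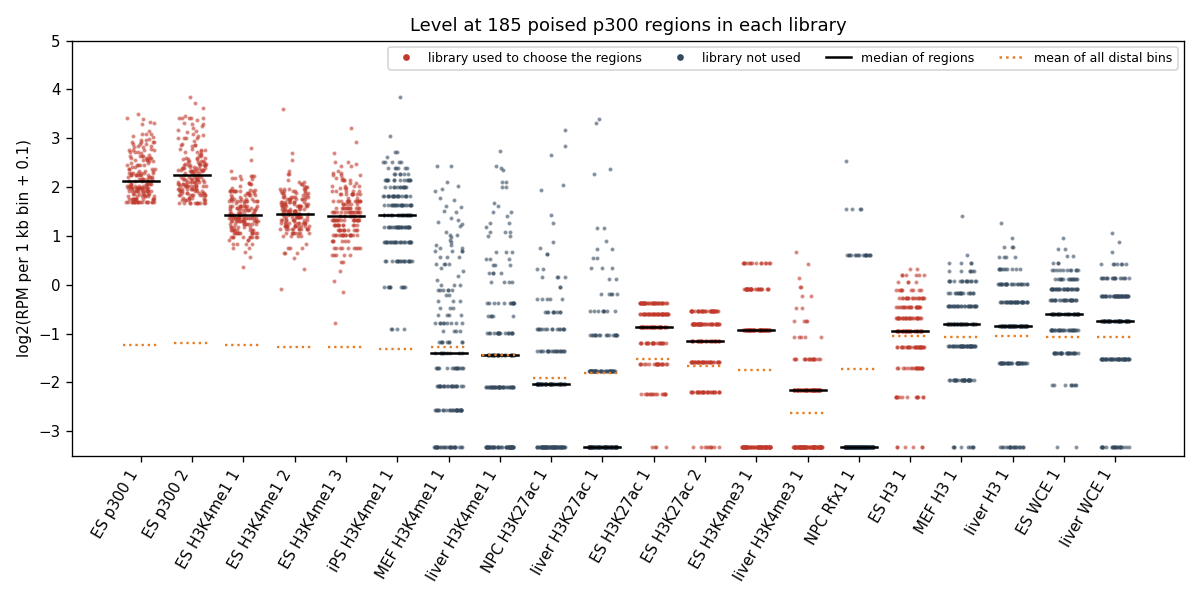
Level of each of the 185 regions (points) in each of the 20 libraries, as log2 of RPM per 1 kb bin plus 0.1. Black lines are medians and dotted lines are means of all distal bins. ES p300, ES H3K4me1 and iPS H3K4me1 sit far above the distal mean. MEF and liver H3K4me1 and NPC and liver H3K27ac sit near or under it at most regions. In the same order, their means over the regions were still 2.22, 2.41, 2.55 and 2.07 times the distal mean.

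The 5 regions with the highest p300, by the lower of the 2 libraries, were spread over 4 chromosomes. Positions are 1-based as in the files, whose chromosome lengths fit the mm8 assembly. At chr5:89754001-89755000 p300 stood at 11.2 and 14.2 RPM (79 and 119 reads), beside 0.45 and 0.23 RPM of ES H3K27ac. At chr11:112775001-112776000 it stood at 9.92 and 10.5 RPM, beside 0.11 and 0.47 RPM of H3K27ac.

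At chr8:67259001-67260000 p300 stood at 9.77 and 10.6 RPM. This region is a special case, because an acetylated distal p300 bin lay only 1 kb away and its own H3K27ac of 0.68 and 0.59 RPM was just under the limit. At chr19:37946001-37947000 p300 stood at 10.5 and 9.66 RPM, and at chr11:32735001-32736000 at 9.63 and 9.78 RPM. None of these 5 was marked by H3K27ac in NPCs or liver by the definition used below. With 7 and 5 of all 185 regions marked, 0 of 5 shows nothing about strong p300. At chr6:83387001-83388000, with 8.36 and 8.11 RPM of p300, liver H3K27ac was 4.70 RPM, and at chr8:46478001-46479000, with 7.08 and 10.6 RPM, NPC H3K27ac was 4.03 RPM.

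Both limits passed through a crowd of bins. At the p300 limit, 11 bins stood at 3.10 RPM just inside, among them chr2:9587001-9588000, chr2:14021001-14022000 and chr3:36415001-36416000. Just outside, 9 bins stood at 2.98 RPM, among them chr1:72507001-72508000, chr1:160039001-160040000 and chr2:158760001-158761000. This step is a single read in library 2, 26 reads against 25.

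At the H3K27ac limit, 40 bins stood at 0.68 RPM just inside, among them chr1:41085001-41086000, chr1:66894001-66895000 and chr1:70795001-70796000. Just outside, 32 bins stood at 0.70 RPM, among them chr1:168119001-168120000, chr1:194465001-194466000 and chr2:52393001-52394000. Both values are 6 reads, in libraries of slightly different depth. The bin chr1:168119001-168120000, just outside, had 6.20 RPM of H3K27ac in NPCs (43 reads), which only 3 of the 185 regions reached.

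How far the choice held in a replicate it had not used could be measured by choosing with 1 library and reading the other. When p300 library 1 alone was used, 246 bins were chosen, and 187 of them (76.0%, 70.2 to 81.2) reached 3 RPM in library 2. The same share was 4.39% among bins that met all other conditions with no choice on p300. In the reverse direction 187 of 307 bins (60.9%, 55.2 to 66.4) reached 3 RPM in library 1, against 3.51% without the choice.

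The lack of acetylation was measured in the same way, though its limit and that of p300 are not on the same scale. When H3K27ac library 1 alone was used, 187 of 309 bins (60.5%, 54.8 to 66.0) were under 0.7 RPM in library 2, against 6.75% of p300 bins without the choice. In the reverse direction it was 187 of 444 bins (42.1%, 37.5 to 46.9), against 4.70%. The bins chosen with 1 library had a median of 0.59 RPM in library 2 and 0.79 RPM in library 1 when these were held out, and the highest of them had 2.23 and 3.15 RPM. A bin low in 1 H3K27ac library was therefore often over the limit in the other, but seldom at the level of an acetylated site, for which the median was 5.41 RPM in library 1 and 4.70 RPM in library 2.

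The regions were next lined up on their p300 summits, so the p300 peak itself was fixed by the choice and the centring and is a description. Summits found in the 2 p300 libraries separately lay a median of 27.3 bp apart at the 185 regions and 30.1 bp apart at acetylated p300 regions, and 173 of the 185 pairs were within 100 bp. p300 at the poised regions averaged 11.1 and 11.9 RPM per kb within 200 bp of the summit in libraries 1 and 2 and fell off to 0.79 and 0.77 RPM per kb at 500 to 1000 bp. At acetylated p300 regions it was 15.8 and 14.8 RPM per kb at the summit and 1.92 and 1.83 RPM per kb at 500 to 1000 bp.

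The iPS library, which took no part in the choice, had a narrow block of H3K4me1. Its level was 2.84 RPM per kb (2.59 to 3.10) at the poised summits, 2.66 RPM per kb (2.51 to 2.82) at 500 to 1000 bp and 0.69 RPM per kb at 3 to 5 kb. At acetylated p300 regions iPS H3K4me1 had a dip at the summit, with 3.95 RPM per kb (3.89 to 4.02) there and 4.84 RPM per kb (4.79 to 4.88) at 500 to 1000 bp, and 2.29 RPM per kb at 3 to 5 kb. The ratio of summit to 500 to 1000 bp was thus 1.07 at poised regions and 0.82 at acetylated ones. The 3 ES libraries gave ratios of 1.16, 1.38 and 1.17 at poised regions, against 0.87, 0.98 and 0.89 at acetylated ones.

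H3, measured in 1 ES library, was lower at the summit in both sets. At poised regions it was 0.43 RPM per kb (0.38 to 0.48) at the summit and 0.56 RPM per kb (0.53 to 0.60) at 500 to 1000 bp. At acetylated regions it was 0.46 and 0.60 RPM per kb at the same places. The input DNA went the other way, with 0.79 RPM per kb (0.72 to 0.87) at the poised summits and 0.59 RPM per kb (0.55 to 0.64) at 500 to 1000 bp, and 0.92 and 0.78 RPM per kb at acetylated ones. The part of this input signal in the p300 peaks was not tested.

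ES H3K27ac, capped in these bins by the choice, was low all around the poised summits, with a small rise at the centre. It was 0.52 (0.47 to 0.58) and 0.45 RPM per kb (0.40 to 0.51) within 200 bp of the summit in libraries 1 and 2. It was 0.36 (0.34 to 0.39) and 0.31 RPM per kb (0.29 to 0.33) at 1 to 2 kb, and 0.38 and 0.42 RPM per kb at 3 to 5 kb. Input DNA at the same places was 0.79, 0.60 and 0.54 RPM per kb, and its part in the H3K27ac rise was not tested. At acetylated regions ES H3K27ac was 6.42 and 6.02 RPM per kb at the summit and 2.48 and 2.42 RPM per kb at 3 to 5 kb.

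**Figure D2:**
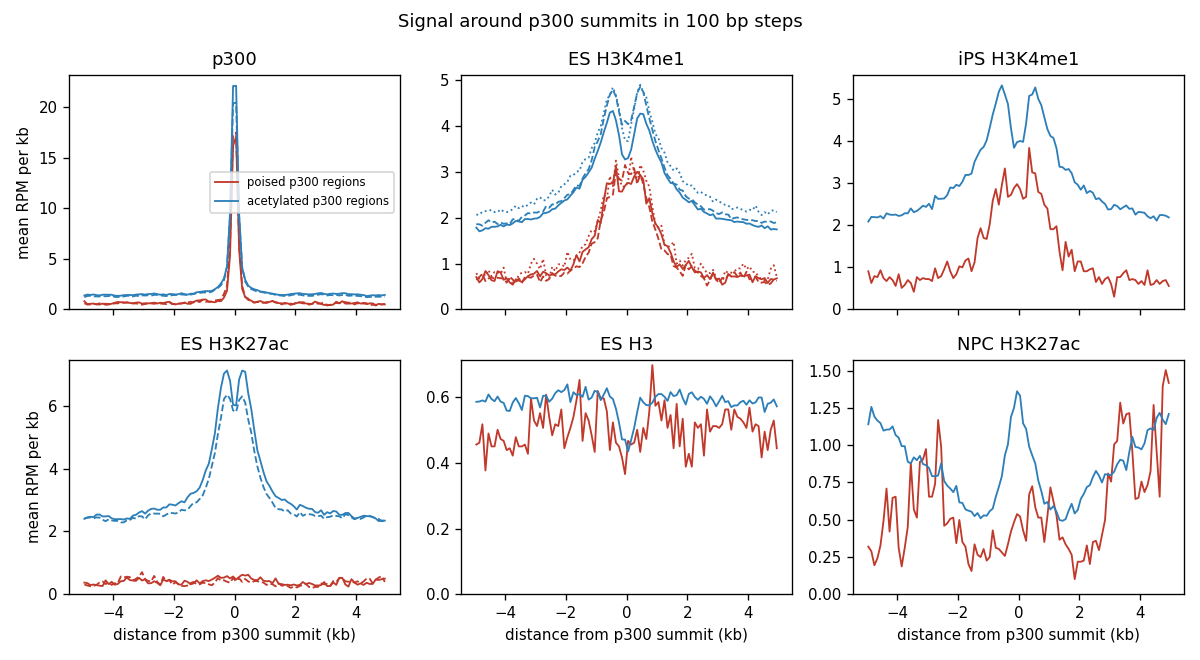
Mean RPM per kb in steps of 100 bp against distance from the p300 summit (kb), at 185 poised regions (red) and 3628 acetylated p300 regions (blue); solid, dashed and dotted lines are libraries 1, 2 and 3, and each panel has its own scale. The iPS H3K4me1 block is single and narrow at poised regions and has 2 shoulders with a dip between them at acetylated regions.

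The H3K4me1 block was also short when followed along the bins. The unbroken run of bins with mean ES H3K4me1 of at least 1 RPM had a median of 3 kb at poised regions, 9 kb at acetylated p300 regions and 5 kb at H3K4me1-only regions. It reached 5 kb or more at 54 of 185 poised regions (29.2%), at 81.2% of acetylated p300 regions and at 52.8% of H3K4me1-only regions. These runs come from the libraries that chose the regions and are a description.

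Acetylated chromatin was about as frequent near poised regions as near all distal bins, and more frequent near H3K4me1-only regions; this was not tested. A bin with H3K27ac of at least 2 RPM in both ES libraries was a median of 44 kb from a poised region (quartiles 17 and 119 kb) and 9 kb from an H3K4me1-only region (4 and 30 kb), though both sets were chosen with the same H3K27ac limit. Such a bin lay within 5 kb of 15 of 185 poised regions (8.11%, 4.61 to 13.0), close to the 8.4% of all distal bins, and within 5 kb of 35.4% (33.6 to 37.1) of H3K4me1-only regions. Within 2 kb it was 4 of 185 (2.16%, against 4.04% of distal bins) and 16.6% of H3K4me1-only regions. Those 4 were chr4:41045001-41046000, chr8:67259001-67260000, chr17:43021001-43022000 and chr17:79806001-79807000, named after their values were seen.

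The nearest acetylated distal p300 bin was a median of 253 kb from a poised region and 116.5 kb from an H3K4me1-only region. It lay within 10 kb of 4 poised regions (2.16%, 0.59 to 5.44), near the 2.44% of all distal bins, and of 10.5% of H3K4me1-only regions. Besides chr8:67259001-67260000 these were chr2:77218001-77219000, chr5:53794001-53795000 and chr13:20131001-20132000, likewise named afterwards. The next poised region was a median of 5088 kb away, with 6 kb for the closest pair.

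Promoter marks were closer to poised regions than to an average distal bin, yet farther than from the other sets. An ES H3K4me3 bin of at least 1.5 RPM lay within 10 kb of 69 poised regions (37.3%, 30.3 to 44.7), against 63.4% of acetylated p300 regions and 55.2% of H3K4me1-only regions, and 22.2% of all distal bins. Median distances were 15, 7 and 9 kb in the same order of sets. The regions lay on all 19 autosomes, with 4 on chromosome 16 and 19 on chromosome 2 as the extremes of the counts. Per 100 Mb of distal bins, chromosome 16 was lowest with 4.35 and chromosome 17 highest with 12.7, where chromosome 2 had 11.3.

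**Figure D3:**
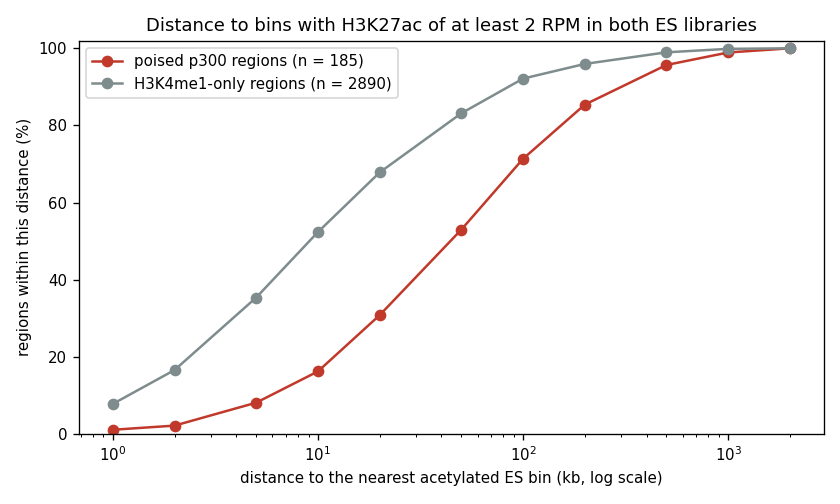
Share of regions (%) with an acetylated ES bin within a given distance (kb, log scale), for 185 poised regions (red) and 2890 H3K4me1-only regions (grey). At 10 kb the shares are 16.2% and 52.4%, and the curve of the poised regions lies lower from 1 to 1000 kb.

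Cells outside the choice were then read at the same bins. A region counts as marked where its bin with the most p300 had at least 2 RPM of the mark and at least 2 times H3 plus 0.1. In iPS cells, reprogrammed from fibroblasts, the regions had H3K4me1 at levels close to those of ES cells. The median was 2.58 RPM (0.43 to 14.2), near the 2.55 to 2.62 RPM of the ES libraries, and the mean of 2.91 RPM (2.75 to 3.07) was 9.57 times that of all distal bins.

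Of the 185 regions 129 (69.7%, 62.6 to 76.3) were marked in iPS cells, against 91.2% (90.2 to 92.1) of acetylated p300 regions and 58.7% (56.9 to 60.5) of H3K4me1-only regions; of all distal bins 4.27% were marked. The sets also differed in ES H3K4me1, with library means of 2.78 to 2.84 RPM at poised regions. The means were 3.89 to 4.48 RPM at acetylated p300 regions and 2.22 to 2.63 RPM at H3K4me1-only regions. The part of this in the iPS shares, with marked set at 2 RPM, was not tested. No poised region was without an iPS read. This library was the shallowest of H3K4me1, where 1 read is 0.43 RPM and the median region had 6 reads. Across regions, iPS and mean ES H3K4me1 had a Pearson r of 0.48 and a Spearman rho of 0.38 (n = 185 regions sharing both sets of libraries).

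In MEFs and liver most of the regions lacked H3K4me1. MEF H3K4me1 had a median of 0.28 RPM (0 to 5.33) and liver H3K4me1 a median of 0.27 RPM (0 to 6.61). No MEF read was found at 28 regions and no liver read at 49. Each marked 17 of the 185 regions (9.19%, 5.44 to 14.3), where the background of all distal bins was 3.58% for MEFs and 2.87% for liver. Acetylated p300 regions were marked at 31.6% in MEFs and 18.7% in liver, and H3K4me1-only regions at 12.4% and 15.1%. The intervals of poised and H3K4me1-only regions (11.2 to 13.7 in MEFs, 13.8 to 16.5 in liver) overlap in both. Of the 17 regions marked in each, 4 were marked in both.

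The test across all distal bins set MEF H3K4me1 against iPS H3K4me1 with limma-trend, a linear model on log2 CPM (counts scaled to library size), over 423162 bins with Benjamini-Hochberg adjustment at 0.05. ES libraries supplied the spread, and each single library was assumed to vary like them. All 185 regions were tested, but they passed the read filter through ES H3K4me1, which the choice required to be high. The calls against iPS cells, which are pluripotent like ES cells, thus rest on regions chosen from that side and describe the regions rather than test them. Of these, 109 were lower in MEFs, where 14% of all bins tested were, and 2 were higher, where 21.1% of all bins were. The median log2 difference, MEF minus iPS, was -2.05 over the regions and 0.33 over all bins.

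The 2 regions called higher in MEFs were chr3:137485001-137486000, by a log2 difference of 2.31 (42 MEF reads against 1 iPS read), and chr14:56687001-56688000, by 1.27 (57 reads against 4). The spread came from the ES libraries and does not measure the counting error of so few iPS reads. The thinned fit described below called 0 regions higher in MEFs. Liver H3K4me1 against iPS gave 92 lower regions, with 12.1% of all bins lower, and 9 higher ones, with 20.3% of all bins higher. The median log2 difference, liver minus iPS, was -1.87 over the regions and 0.26 over all bins. Both contrasts share the iPS and ES libraries.

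These counts carried a limit. In tests on simulated data the limma fit made too many calls in contrasts with the shallow iPS library, so all H3K4me1 libraries were also thinned to its depth, a fit added after seeing the data. It tested 84 of the regions and called 4 lower and 0 higher in MEFs than in iPS cells, where 3.91% and 8.93% of all bins were lower and higher. Without adjustment, 23 were lower and 0 higher at a p of 0.05. For liver it called 7 lower and 0 higher, where 7.49% and 18% of all bins were, and 24 were lower and 1 higher without adjustment. The shares of lower calls, 4 and 7 of 84, are near the background, and the median log2 differences were -1.41 and -1.37.

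The 4 regions lower in MEFs in the thinned fit were chr9:64159001-64160000, chr6:51637001-51638000, chr8:117002001-117003000 and chr14:31209001-31210000. The counts were also 0 in every H3K4me1 contrast when ES library 1 or 2 was left out, and for all bins as well, with 105 to 112 regions lower in MEFs and 89 to 99 lower in liver than in iPS cells at an unadjusted p of 0.05. The median log2 differences moved little in these fits, to -2.05 and -2.04 for MEFs to -1.86 and -1.85 for liver.

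Liver against MEF H3K4me1, which does not involve the iPS library, gave 24 higher regions and 14 lower ones, where 16.6% and 12.9% of all bins were higher and lower. The median log2 difference, liver minus MEF, was 0.14 over the regions and 0 over all bins. Scaled to total reads, which moved the median of all bins to -0.46, the same fit called 14 higher and 21 lower. The direction of the counts thus depended on the scaling.

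Single regions were nevertheless far apart between liver and MEFs. They were named for being among the highest in liver or in MEFs, so their differences are a description. Each side is a single library, and the SE comes from the spread of the ES libraries. At chr8:117002001-117003000 liver had 5.13 RPM of H3K4me1 (38 reads) and MEFs had none, and the log2 difference was 5.20 ± 0.48 (SE). At chr4:102474001-102475000 liver had 5.26 RPM and MEFs 0.35 RPM, and the log2 difference was 4.05 ± 0.38. At chr17:79806001-79807000 it was the reverse, with 0.13 RPM in liver and 5.33 RPM in MEFs (77 reads), and the log2 difference was -3.41 ± 0.38.

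The other regions highest in MEFs were of both kinds. At chr10:125343001-125344000 liver had 1.08 RPM and MEFs 5.26 RPM, and at chr3:108985001-108986000 liver had 0.94 RPM and MEFs 4.22 RPM. At chr14:56687001-56688000 liver had 2.29 RPM and MEFs 3.94 RPM, and at chr2:61047001-61048000 liver had 3.91 RPM and MEFs 3.80 RPM. The last of these had 10 reads (2.29 RPM) of H3 in liver and so was not counted as marked there.

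Liver was highest at chr6:83387001-83388000, with 6.61 RPM of H3K4me1 (49 reads) beside 3.32 RPM in MEFs (48 reads). At chr10:92972001-92973000 it had 4.99 RPM and at chr6:51637001-51638000 4.18 RPM, the same as at chr13:9016001-9017000. MEFs had 0.42 RPM at the first and 0.55 RPM at the second of these sites.

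H3K27ac, the mark that the regions hold little of in ES cells, was found at few of them in NPCs or liver. NPC H3K27ac had a median of 0.14 RPM (0 to 8.93), with no read at 66 regions. It marked 7 regions (3.78%, 1.53 to 7.64), where 0.722% of all distal bins were marked. Acetylated p300 regions were marked at 10.9% (9.89 to 11.9) and H3K4me1-only regions at 1.59% (1.17 to 2.12).

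Liver H3K27ac had a median of 0 RPM (0 to 10.4), with no read at 93 regions. It marked 5 regions (2.70%, 0.88 to 6.19), where 1.5% of all distal bins were marked, against 10.6% of acetylated p300 regions and 5.26% (4.47 to 6.14) of H3K4me1-only regions. Thus the share with NPC H3K27ac at poised regions lay between those of the other sets, whereas the share with liver H3K27ac was below both. The intervals of poised and H3K4me1-only regions overlap in both cells, and no difference between the sets was tested.

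The regions with NPC H3K27ac had clear read counts. The highest was chr14:117114001-117115000, with 8.93 RPM (62 reads) in NPCs and 0.20 RPM in liver (1 read), and 0.34 and 0.47 RPM in ES cells. At chr17:43494001-43495000 NPCs had 7.06 RPM (49 reads) and liver 0.20 RPM, beside 0.68 and 0.23 RPM in ES cells. At chr5:104312001-104313000 NPCs had 6.20 RPM (43 reads) and liver 0.39 RPM. All 3 were thus high in NPCs and low in liver. Low ES values were fixed by the choice, and the regions were picked as the highest in NPCs.

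At chr8:46478001-46479000 NPCs had 4.03 RPM (28 reads), liver 0.98 RPM, and MEF H3K4me1 was 3.67 RPM. At chr9:100391001-100392000 NPCs had 3.75 RPM (26 reads) and liver 0.20 RPM. At the remaining marked region that can be named, chr2:69928001-69929000, NPCs had 2.59 RPM (18 reads). The ES p300 level of the 7 marked regions, with medians of 3.82 and 4.77 RPM, compared with 4.39 and 4.59 RPM at the other 178.

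Of the 185 regions 0 were marked by both liver and NPC H3K27ac (up to 1.97%), where 0.0965% of all distal bins were. With 5 and 7 marked regions nothing is read from this. Both marks were found at 2.51% of acetylated p300 regions and 0.21% of H3K4me1-only regions. Liver H3K27ac was 10.4 RPM (53 reads) at chr13:9016001-9017000, 9.78 RPM (50 reads) at chr10:92972001-92973000, 5.09 RPM (26 reads) at chr8:117002001-117003000, 4.70 RPM (24 reads) at chr6:83387001-83388000 and 2.15 RPM (11 reads) at chr12:80544001-80545000. These 5 were named after their values were seen. NPC H3K27ac was at most 1.15 RPM there. Liver H3K4me1 marked 4 of the 5, all but the lowest, and over all regions both liver marks had a Pearson r of 0.63 and a Spearman rho of 0.47 (n = 185 regions). The 5 regions with liver H3K27ac were under the H3K4me3 limit of distal bins, but high within it. ES H3K4me3 had a median of 1.27 RPM (0.84 to 1.27) there and 0.42 RPM (0 to 1.27) at the other 180. Liver H3K4me3 had medians of 0.62 RPM (0.12 to 0.87) and 0 RPM (0 to 1.49). The part of nearby promoters in this liver H3K27ac was not tested.

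In the fit across 167119 bins only 17 of the 185 regions passed the read filter, and those did so through the cells in which they were high. Of these, limma called 10 higher in NPCs than in liver and 5 lower, where 21.6% and 16.7% of all bins were called, and 3 and 3 with scaling to total reads. The filter largely fixed these calls, so nothing is read from them. Over bins with at least 1 read, where all 185 regions were tested, 14 were called higher and 9 lower, against 14.8% and 5.36% of all bins, so neither count was above the background share. At chr14:117114001-117115000 the log2 difference, NPC minus liver, was 5.35 (62 reads against 1), and at chr10:92972001-92973000 it was -3.86 (2 reads against 50). The residual spread of this fit came from the ES H3K27ac libraries, which the choice capped at these regions. It does not measure how NPC or liver libraries vary, so no SE is given. The other regions lower in NPCs in the filtered fit were chr13:9016001-9017000, chr8:117002001-117003000, chr6:83387001-83388000 and chr16:43305001-43306000, named after their values were seen. Each of these contrasts rests on a single library per cell type.

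**Figure D4:**
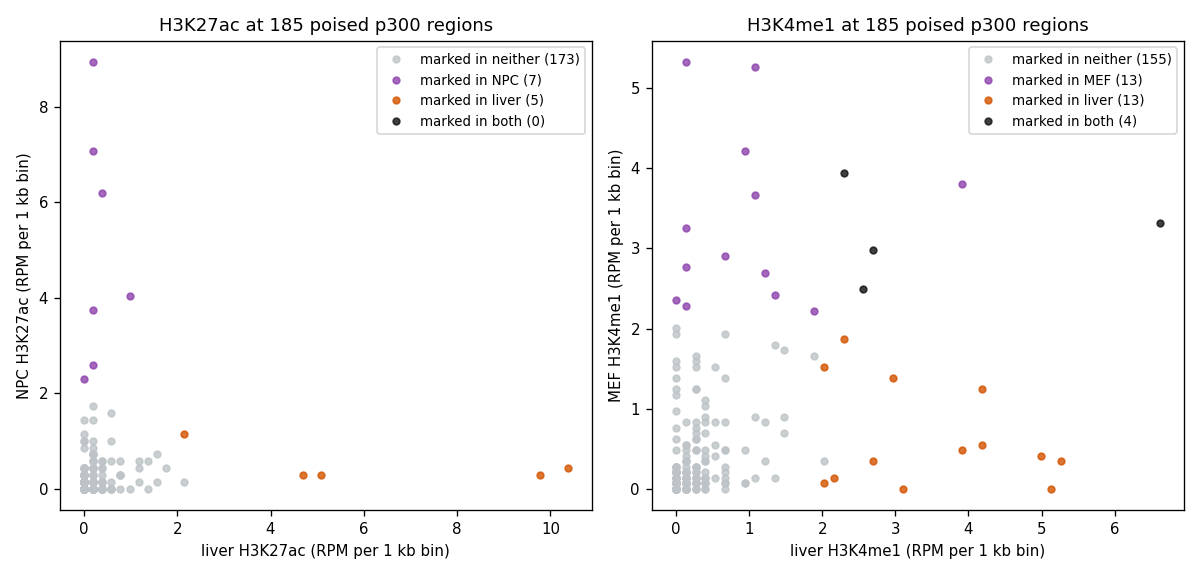
Left, NPC against liver H3K27ac; right, MEF against liver H3K4me1, in RPM per 1 kb bin, with 1 point for each of the 185 regions and colours for where it was marked. For H3K27ac 7 regions lie up the NPC axis, 5 along the liver axis and 0 are marked in both; for H3K4me1 4 are marked in both.

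Counted together, 151 of the 185 regions (81.6%, 75.3 to 86.9) had none of NPC H3K27ac, liver H3K27ac, MEF H3K4me1 and liver H3K4me1. This was fewer than the 93.7% of all distal bins without them, and compares with 56.7% of acetylated p300 regions and 74.3% (72.7 to 75.9) of H3K4me1-only regions. A further 23 had 1 of them, 10 had 2, and 1 had 3. The one with 3 was chr6:83387001-83388000, with both liver marks and MEF H3K4me1.

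Shares were also counted over the bin and its neighbours within 2 kb. This can only raise them, for the regions and for all distal bins alike. Within 2 kb, NPC H3K27ac marked a bin at 14 regions (7.57%, where 3.13% of distal bins had one) and liver H3K27ac at 15 (8.11%, against 4.85%). MEF H3K4me1 did so at 42 (22.7%, against 10.6%), liver H3K4me1 at 38 (20.5%, against 8.87%) and iPS H3K4me1 at 157 (84.9%, against 11.6%). At H3K4me1-only regions the share within 2 kb was 10.7% (9.59 to 11.9) for NPC H3K27ac, which overlaps the interval of poised regions (4.2 to 12.4). For liver H3K27ac it was 16.9% (15.5 to 18.3), against 4.61 to 13.0 for poised regions.

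**Figure D5:**
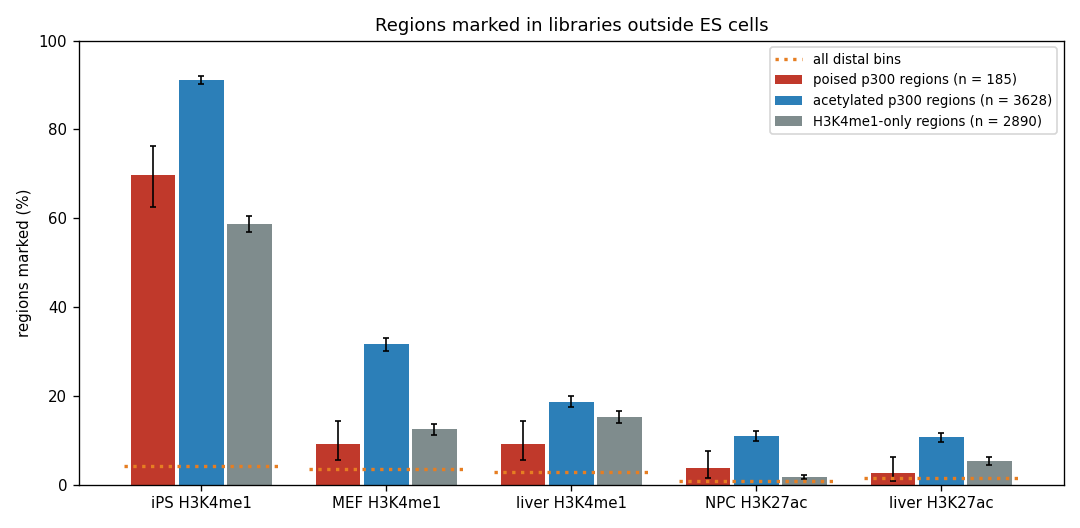
Share of regions (%) marked in the bin in each library outside ES cells, for poised (red), acetylated p300 (blue) and H3K4me1-only regions (grey), with exact 95% intervals and the share of all distal bins (dotted). Poised regions reach 69.7% in iPS cells and at most 9.19% elsewhere.

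Mean summit signal in the differentiated cells was lower at poised than at acetylated p300 regions, and above the mean of all distal bins. For MEF and liver H3K4me1 and NPC and liver H3K27ac, the summits of acetylated regions had 2.75, 1.57, 1.27 and 0.96 RPM per kb. Distal means were 0.31, 0.27, 0.16 and 0.19 RPM per 1 kb bin in the same order. At poised regions MEF H3K4me1 was 1.00 RPM per kb (0.95 to 1.07) at the summit and 0.57 RPM per kb (0.54 to 0.60) at 500 to 1000 bp. Liver H3K4me1 was 0.78 RPM per kb (0.71 to 0.86) and 0.53 RPM per kb (0.49 to 0.57) at the same places. Liver H3, however, was also higher at the summit, with 0.73 RPM per kb (0.64 to 0.83) against 0.48 RPM per kb (0.43 to 0.53), a ratio of 1.53 beside 1.47 for liver H3K4me1. MEF H3 had a ratio of 1.07 beside 1.76 for MEF H3K4me1. The part of H3 density in the liver peak was not tested. NPC H3K27ac was 0.49 RPM per kb (0.43 to 0.56) at the summit, 0.41 RPM per kb (0.37 to 0.44) at 500 to 1000 bp and 0.76 RPM per kb at 3 to 5 kb. Liver H3K27ac was 0.50 RPM per kb (0.44 to 0.58), 0.38 RPM per kb (0.34 to 0.42) and 0.61 RPM per kb at the same places, with a ratio of summit to 500 to 1000 bp of 1.33 beside 1.21 for NPCs. That ratio was 1.28 for liver WCE, and its part in the liver rise was not tested. The choice kept H3K4me3 low in the bin and both neighbours, but not farther out. Liver H3K4me3 was 0.15 RPM per kb at the summit and 0.63 RPM per kb at 3 to 5 kb, and ES H3K4me3 was 0.47 and 0.61 RPM per kb. The part of this choice in the higher H3K27ac at 3 to 5 kb was not tested.

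Rfx1, a DNA-binding factor of the RFX family that was measured in NPCs, was close to background at the regions. Its mean was 0.22 RPM (0.15 to 0.32), 1.09 times that of all distal bins (0.73 to 1.57), and 163 of 185 regions had no read. At acetylated p300 regions its mean was 1.04 RPM, 5.12 times that of all distal bins. Only 0.705 M distinct reads were at hand, and 1 read is 1.42 RPM. The highest region was chr1:41334001-41335000, with 4 reads (5.68 RPM), followed by chr3:108985001-108986000 and chr8:121688001-121689000 with 2 reads each, as 2 others had.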

How the data were processed

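Each deposited file lists the aligned reads of 1 library as signed positions under chromosome names. The values the authors deposited are positions, another kind of value than counts or signal, and per the file headers reads stand in sections U0 and U1. Which aligner and genome build were used is not given in the sources used here. Positions fit the chromosome lengths of the mm8 assembly. The annotation at hand was GRCm38.p6, so no gene or sequence was attached.

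Reads were counted once per position and strand and moved 100 bp toward the fragment centre. Python 3.11.15 with numpy 2.4.6, scipy 1.17.1, pandas 2.3.3 and matplotlib 3.10.9 was used. In limma 3.58.1 (R 4.3.3), distal bins with at least 10 reads in 1 library of the mark were tested on log2 CPM (prior count 2, trimmed mean of M-values over bins deep enough in every library), and the fit was tested on simulated data. The ES libraries gave 2 residual degrees of freedom for H3K4me1 and 1 for H3K27ac, so p-values reflect how far these libraries differ, in part perhaps for technical reasons. The 3 ES H3K4me1 libraries also differ in line, transgene and passages off the feeders, which cannot be told apart from replicate spread. Libraries of one group differed by more than sampling noise (chi-square per degree of freedom 1.34 to 2.54).

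Named were the 5 regions highest in p300 (the lower library), NPC H3K27ac, MEF H3K4me1 and liver H3K4me1, the 3 highest in Rfx1, all with ES WCE under 1.5 RPM, and 3 bins on each side of both limits; regions on chromosome 18 were counted only. The regions, sets and rules were chosen with earlier results of these data known. Alternatives changed the handling of reads, the limits, the scaling and the libraries.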

Additional observations from a re-analysis of the deposited data

How the results depend on the processing

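The number of regions, 185, became 87 with H3K27ac under 0.5 RPM and 175 to 439 when each ES library was left out in turn; the highest was without H3K27ac library 1 (439), and 306 and 305 were found without H3K27ac library 2 and p300 library 1. The share marked by iPS H3K4me1, 69.7%, was 76.6% with all reads counted, 76.3% with reads not moved, 58.6% at the 0.5 RPM limit, 81.1% and 47.6% when marked meant 1.5 and 3 RPM, and 84.9% within 2 kb. The shares marked by MEF and liver H3K4me1, 9.19% each, were both 4.32% at 3 RPM, and 22.7% and 20.5% within 2 kb; liver was 14.9% at the 0.5 RPM limit. Liver H3K27ac, 2.70%, was 8.11% within 2 kb. Leaving out 1 ES library gave 2.96 to 4.92% for NPC H3K27ac, 1.96 to 3.65% for liver H3K27ac, 69.2 to 74.5% for iPS, 7.54 to 10.5% for MEF and 7.21 to 9.50% for liver H3K4me1. Held-out shares differed by which library chose, 76.0% and 60.9% for p300 and 60.5% and 42.1% for H3K27ac.

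Counts of limma calls moved more. MEF minus iPS, 2 higher and 109 lower, gave 1 higher with total scaling, 0 higher with limma-voom, 0 and 0 over bins with at least 1 read, and 0 and 4 thinned. Liver minus iPS, 9 and 92, gave 1 higher with total scaling, 1 and 20 with limma-voom, 0 and 0 over bins with at least 1 read, and 0 and 7 thinned. Liver minus MEF, 24 and 14, gave 14 higher with total scaling, 37 higher at a prior count of 0.5, 4 lower with limma-voom, 0 and 0 over bins with at least 1 read, and 2 and 2 thinned. Over bins with at least 1 read, unadjusted p-values under 0.05 still gave 122 lower in MEF than iPS, 109 lower in liver than iPS, and 36 higher and 19 lower in liver than MEF. NPC minus liver H3K27ac, 10 and 5, gave 3 and 3 with total scaling, 2 lower with limma-voom, 6 and 3 at a prior count of 0.5, and 9 lower over bins with at least 1 read. Without 1 ES H3K4me1 library, MEF minus iPS gave 0 to 1 higher and 0 to 96 lower, liver minus iPS 0 to 6 and 0 to 88, and liver minus MEF 0 to 23 and 0 to 14; each fit had 1 residual degree of freedom, and the zeros came without library 1 or 2. The cause of these changes was not tested.

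Thinning, the 2 kb window and distal calls by liver H3K4me3 alone (209 regions) were chosen after seeing the data. Leaving out an ES H3K27ac library in the NPC and liver contrast leaves no residual degrees of freedom and was not run. No paired analysis was possible because the groups compared have 1 library each, and the numbers shared by H3K27ac and p300 libraries join different targets. With a median of 6 iPS reads, and 1 read of Rfx1 worth 1.42 RPM, depth limits what single regions show.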
